A study of Mus musculus with 9 samples.

Results

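The genes described here are those of the mouse major histocompatibility complex (MHC, called H2 in the mouse) and of the antigen presentation route that serves it. Members were taken by name: every probe whose deposited gene symbol begins with H2- and a capital letter, together with the probes of B2m, Cd74, Tap1, Tap2, Tapbp, Ciita, Psmb8 and Psmb9. The rule itself used no measured value, but the members were chosen with earlier results of these data known. It found 43 of the 18110 deposited gene symbols, read by 53 of the 25697 probes on the array. By the RefSeq annotation of assembly GRCm38.p6 they are 42 genes, since the deposited symbol H2-Tw3 is now a synonym of H2-T3. Of these, 39 lie on chromosome 17, and B2m, Ciita and Cd74 lie on chromosomes 2, 16 and 18. No probe carries the symbol H2-D1, the gene of a second classical class I chain.

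The samples were whole ovaries of Swiss mice, taken at postnatal day 3 to 4 and kept in organ culture for 4 days (96 hours). Ovaries received the vehicle alone (0.01% acetone), DMBA (7,12-dimethylbenz[a]anthracene) at 50 nM, or BaP (benzo[a]pyrene) at 1 uM. Both compounds are polycyclic aromatic hydrocarbons, and per the labels the DMBA dose was picked from pilot work so that it would be openly toxic. All 3 groups shared a medium with fetal calf serum, basic fibroblast growth factor, leukemia inhibitory factor and stem cell factor, and each had 3 arrays of an Illumina mouse Ref-8 beadchip, 9 in all. Whether the 3 arrays of a group stand for separate litters, pooled ovaries or repeat preparations is not stated in the labels. The p-values therefore set each group difference only against the scatter of these samples, and that scatter could be technical.

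Class I molecules display peptides from inside a cell to cytotoxic T cells and natural killer cells. Each is a heavy chain (H2-K, H2-D and H2-L in the classical set, and the many class Ib chains of the Q, T and M clusters) bound to the light chain beta-2 microglobulin, the product of B2m. The immunoproteasome subunits Psmb8 and Psmb9 help cut the peptides, the transporter Tap1 and Tap2 carries them into the endoplasmic reticulum, and tapasin (Tapbp) helps load them. Class II molecules display peptides from outside the cell to helper T cells and are made mainly by dendritic cells, macrophages and B cells, which in an ovary are a minority of cells beside oocytes, granulosa cells and stroma. Each pairs an alpha and a beta chain, I-A from H2-Aa and H2-Ab1 and I-E from H2-Ea and H2-Eb1. The invariant chain, Cd74, escorts the pair to the endosome, H2-DM exchanges the peptide, H2-DO inhibits H2-DM, and Ciita is the transactivator that switches the class II genes on, typically after interferon gamma.

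Values are log2 normalized signals, made from the deposited intensities with normexp background correction (offset 50) and quantile normalization. A probe was called where its adjusted p in limma, with Benjamini-Hochberg adjustment over all 25697 probes, was under 0.05. Arrays differed in brightness, with median intensities between 105.8 and 133.7 for acetone, between 105.2 and 126 for DMBA and between 94.7 and 104.1 for BaP. DMBA replicate 3 stood apart from the other arrays, at -28.6 on the second principal component against -1.14 to 9.01 for the rest, and it deviated most from its group (SD over probes 0.151, against 0.0788 to 0.121). The ovary label was borne out by most of the oocyte and granulosa genes listed for this check. By their means over the 9 arrays, all 12 oocyte genes lay above the median level of all probes (log2 6.29). Their array means were 9.77 to 9.91. Of the 8 granulosa genes, 6 lay above that level, while Fshr (6.09) and Kitl (6.00) lay below it. Of the 53 members, 30 probes lay above that median level and 23 at or below it, where little of a change can show. A difference over a group near that level is therefore one of measured signal, with background in it, and not a size of change in RNA. None of those 23 was called in any comparison, and their differences from acetone ran from -0.13 to 0.18 with DMBA and from -0.16 to 0.10 with BaP.

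With DMBA, 11 of the 53 member probes rose and none fell, which is 20.8% of the members beside 1.05% of all probes called (0.802% higher and 0.249% lower). With BaP, 3 rose and 9 fell, 22.6% of the members beside 9.8% of all probes (4.9% higher and 4.9% lower). Compared directly, 1 member was higher and 13 were lower with BaP than with DMBA, 26.4% beside 1.12% of all probes (0.506% higher and 0.615% lower). The members' median difference from acetone was 0.11 for DMBA and -0.01 for BaP, and their median was -0.10 for BaP against DMBA, beside -0.01, 0.00 and 0.00 over all probes. The 3 arrays of one group lay wholly above or below the 3 of the other in 23 members for DMBA, in 17 for BaP and in 24 for BaP against DMBA. Over all probes this was so for 16%, 24.1% and 15.8%. The comparisons with acetone share the acetone arrays, so their values are set side by side and no relation between them is drawn.

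The DMBA count moved with single arrays. Leaving out acetone replicate 1, 2 or 3 left 6, 2 or 7 members higher, and leaving out DMBA replicate 1, 2 or 3 gave 13, 8 or 16, while the count over all probes went from 270 to between 26 and 1132. Median scaling in place of quantile normalization, which leaves the BaP arrays dimmer at bright probes, gave 1 member higher with DMBA, 1 higher and 19 lower with BaP, and 1 higher and 24 lower between the compounds. With DMBA its calls over all probes were 2 higher and 2 lower, beside 206 and 64, while the median difference of the class II and accessory probes was 0.58, beside 0.68. Under it the split over all probes was 429 higher and 6075 lower with BaP, beside 1258 and 1260, and 84 and 2860 between the compounds, beside 130 and 158. It put the median BaP difference of all probes above the median level at -0.34, beside -0.01. Without BaP replicate 2 or 3, the direct comparison called 7 or 8 members lower and 1 higher.

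**Figure D1:**
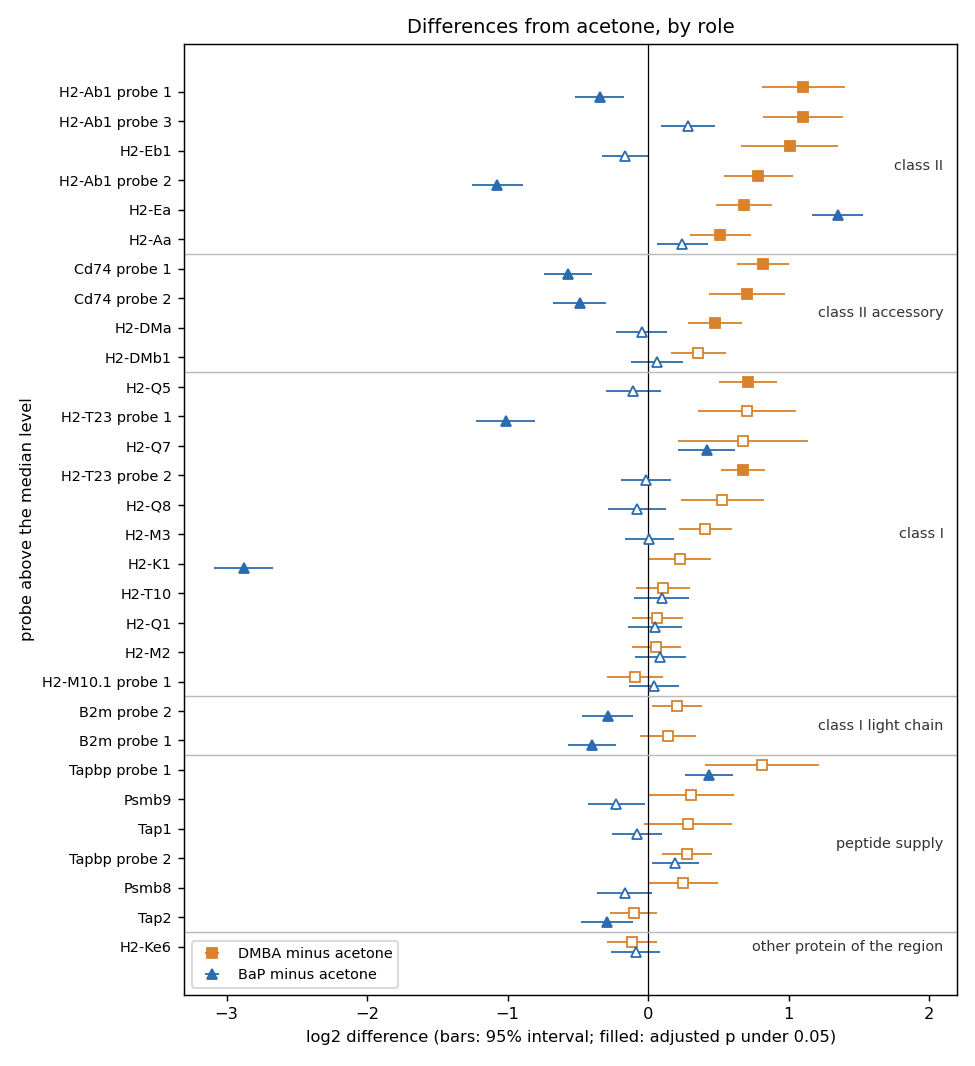
Log2 difference from acetone of the 30 member probes above the median level, grouped by role, with DMBA as orange squares and BaP as blue triangles. Bars are 95% intervals from limma and filled symbols passed an adjusted p of 0.05; the class II probes sit to the right of 0 with DMBA, and H2-K1 with BaP lies at -2.88.

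The class II chains gave the most uniform response to DMBA. All 6 probes of H2-Ab1, H2-Aa, H2-Ea and H2-Eb1 rose, with a median log2 difference of 0.89 and a range of 0.51 to 1.10, and in each of them all DMBA arrays lay above all acetone arrays. With BaP the same 6 probes went both ways, with H2-Ea higher, 2 probes of H2-Ab1 lower, 3 probes past no threshold and a median of 0.04. Promoters of H2-Aa and H2-Eb1 are shown because the X and Y box module through which the class II transactivator acts lies before the start site of class II genes. The sequences are RefSeq's for GRCm38.p6, cover the 200 bases before the annotated start and run 5′ to 3′ on the gene's strand. Capitals mark the Y box (ATTGG) and the core of the X box consensus on either strand, and in the sequences given further down also an interferon-stimulated response element core (AAANNGAAA) and the core of an NF-kB site (GGGATTCCC).
H2-Aa promoter, chr17:34287824-34288023, minus strand: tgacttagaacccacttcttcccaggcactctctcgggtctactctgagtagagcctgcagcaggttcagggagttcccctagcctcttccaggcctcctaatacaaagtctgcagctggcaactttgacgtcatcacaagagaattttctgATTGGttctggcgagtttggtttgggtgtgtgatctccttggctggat
H2-Eb1 promoter, chr17:34305667-34305866, plus strand: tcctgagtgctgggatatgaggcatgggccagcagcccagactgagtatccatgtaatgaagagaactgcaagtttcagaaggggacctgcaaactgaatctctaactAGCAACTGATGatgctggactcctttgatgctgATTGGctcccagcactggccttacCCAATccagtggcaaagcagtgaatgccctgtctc

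The X box core of H2-Eb1 lies at -92 to -82 from the start and its Y boxes at -59 to -55 and -35 to -31, while H2-Aa has a Y box at -48 to -44. H2-Aa has no match to the X box letters searched. Fixed letters can miss a site that differs from them, so an X box is not shown to be absent there. Among the 30 member genes with a promoter in the table, 25 hold the Y box letters and 4 the X box core (H2-Eb1, H2-DMb1, H2-Oa and H2-Ob). Only H2-Eb1 of these 4 was called in any comparison. Of all 32851 promoter windows of the same length, 29.3% hold the Y box letters and 0.271% the X box core. These are matches of letters and not sites shown to be bound, and the motif letters were settled after windows had been read.

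H2-Ab1, the I-A beta chain, was read by 3 probes, numbered here from the highest mean level to the lowest. Probe 1 read 8.65, 8.69 and 8.69 on the acetone arrays, 9.57, 9.63 and 10.15 with DMBA and 8.22, 8.37 and 8.41 with BaP. Every DMBA array was above and every BaP array below every acetone array. The log2 difference was 1.10 with DMBA (SE 0.134, 2.15-fold, adjusted p = 0.0049) and -0.34 with BaP (SE 0.084, adjusted p = 0.008).

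Probe 2 of H2-Ab1 read 8.17, 8.11 and 8.36 with acetone, 8.86, 8.89 and 9.24 with DMBA and 7.19, 7.08 and 7.15 with BaP, again with no overlap between the 3 groups. It rose by 0.78 with DMBA (SE 0.112, adjusted p = 0.0089) and fell by 1.07 with BaP (SE 0.0871, 2.11-fold lower, adjusted p = 4.2e-09). Probe 3 read 7.13, 7.16 and 7.34 with acetone, 8.06, 8.26 and 8.62 with DMBA and 7.54, 7.64 and 7.31 with BaP. The DMBA arrays were the highest here too, but 1 BaP array fell among the acetone arrays. Its difference was 1.10 with DMBA (SE 0.128, adjusted p = 0.0041), while 0.29 with BaP did not pass (SE 0.0934, adjusted p = 0.053).

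H2-Aa, the I-A alpha chain, read 6.19, 6.31 and 6.39 with acetone, 6.90, 6.61 and 6.91 with DMBA and 6.59, 6.43 and 6.60 with BaP. The acetone values are at the median level of all probes, so part of a change can be hidden there. The DMBA arrays were all above the BaP arrays, and these above the acetone arrays. It rose by 0.51 with DMBA (SE 0.0991, adjusted p = 0.039), and 0.24 with BaP did not pass (adjusted p = 0.08). The DMBA call was lost under 7 of 14 alternatives (adjusted p up to 0.23).

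H2-Eb1, the I-E beta chain, read 7.53, 7.47 and 7.53 with acetone, 8.13, 8.49 and 8.93 with DMBA and 7.38, 7.31 and 7.35 with BaP. It rose by 1.01 with DMBA (SE 0.157, 2.01-fold, adjusted p = 0.014), a call lost under 7 of 14 alternatives (adjusted p up to 0.14). The BaP arrays lay just under the acetone arrays, and the difference of -0.16 did not pass (95% interval -0.33 to 0.01, adjusted p = 0.26). DMBA arrays of this probe were more spread than the others, with an SD of 0.40 against 0.03 in either other group.

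H2-Ea, the I-E alpha chain, behaved unlike the other class II chains. It read 6.17, 6.27 and 6.48 with acetone, 6.95, 6.98 and 7.03 with DMBA and 7.60, 7.68 and 7.67 with BaP. The 3 groups did not overlap and BaP was the highest. The rise in signal was 0.68 with DMBA (SE 0.0903, adjusted p = 0.0066) and 1.35 with BaP (SE 0.0891, adjusted p = 1.2e-10), over acetone arrays that lie at the median level of all probes. RefSeq annotates H2-Ea as a transcribed pseudogene in the reference strain, as it does H2-Q5, H2-T10, H2-Bl and H2-D4, and the labels give no H2 haplotype for these Swiss mice.

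**Figure D2:**
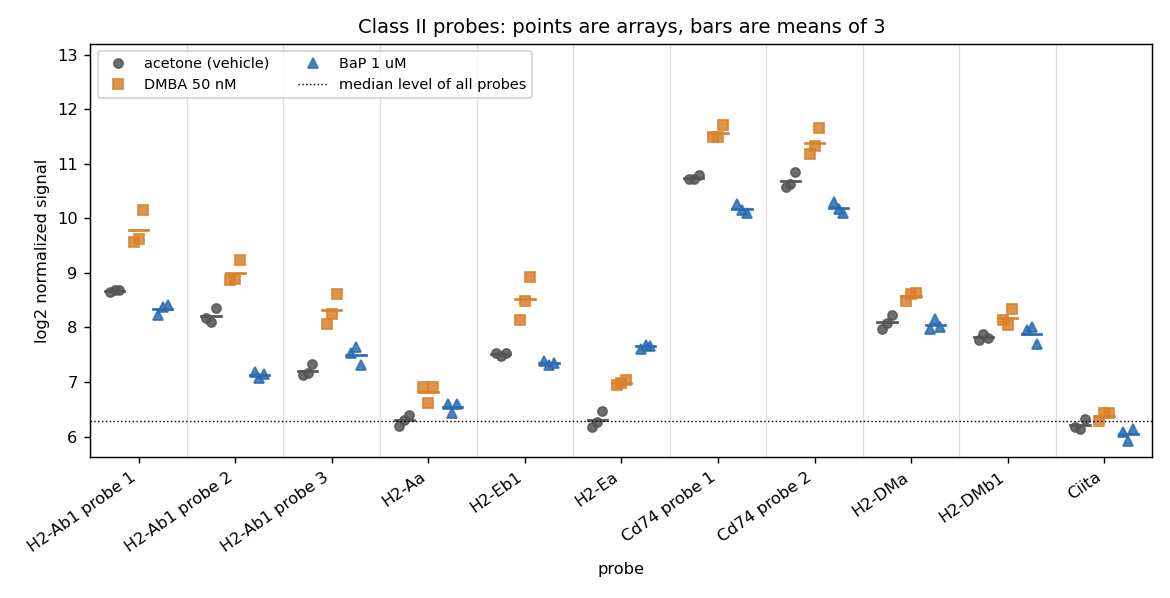
Log2 normalized signal of 11 probes of the class II route on each array, with bars at the mean of 3 arrays. DMBA arrays (orange squares) lie above the acetone arrays (grey circles) at every H2-Ab1, H2-Aa, H2-Eb1, H2-Ea and Cd74 probe, and BaP arrays (blue triangles) lie above DMBA only at H2-Ea.

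The partners of the class II chains were split by level. Cd74, the invariant chain, had 2 bright probes. Probe 1 read 10.71, 10.73 and 10.79 with acetone, 11.49, 11.49 and 11.71 with DMBA and 10.26, 10.15 and 10.11 with BaP. Probe 2 read 10.57, 10.63 and 10.85 with acetone, 11.18, 11.32 and 11.66 with DMBA and 10.30, 10.18 and 10.10 with BaP. On both, the DMBA arrays were the highest and the BaP arrays the lowest with no overlap. The differences were 0.82 and 0.70 with DMBA (adjusted p = 0.0023 and 0.024) and -0.57 and -0.49 with BaP (adjusted p = 3.8e-05 and 0.00064). The DMBA call of probe 2 was lost under 7 of 13 alternatives (adjusted p up to 0.22).

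H2-DMa, the alpha chain of the peptide exchanger, went from 8.10 ± 0.12 with acetone to 8.57 ± 0.08 with DMBA (mean ± SD, n = 3). The rise was 0.47 (SE 0.0874, adjusted p = 0.032), and the call was lost under 8 of 14 alternatives (adjusted p up to 0.60). With BaP it was at 8.05 ± 0.09, a difference of -0.05 (95% interval -0.23 to 0.14). Its partner H2-DMb1 differed by 0.36 with DMBA, with no overlap between the arrays, which did not pass (adjusted p = 0.1), and by 0.06 with BaP. H2-DMb2, H2-Oa and H2-Ob, the last 2 forming the DM inhibitor DO, lay at or below the median level.

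Ciita, the class II transactivator, read 6.17, 6.13 and 6.32 with acetone, 6.29, 6.44 and 6.43 with DMBA and 6.08, 5.92 and 6.13 with BaP. All these values are near the median level of all probes. The differences of 0.18 with DMBA and -0.16 with BaP did not pass (adjusted p = 0.51 and 0.31), nor did -0.34 between the compounds (95% interval -0.54 to -0.14, adjusted p = 0.13). Of 14 further genes of the class II route, listed for this work, 1 rose with DMBA, while 2 rose and 3 fell with BaP. Over all probes 1.05% were called with DMBA and 9.8% with BaP. The lysosomal protease gene Ctsl rose by 0.48 with DMBA and 0.58 with BaP. With BaP the protease gene Lgmn rose by 0.35, while Ifi30, a lysosomal thiol reductase gene, fell by 0.38 and the proton channel gene Hvcn1 fell by 0.29. Rfx5, a subunit of the factor that binds the X box, was at 0.04 with DMBA and 0.13 with BaP, neither past the test, at a mean level of 6.06.

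Markers of the cells that make class II moved as well. Of 19 measured macrophage and dendritic cell genes, 15 were above the median level, and the array mean over the list was 7.97 to 8.04 with acetone, 8.11 to 8.17 with DMBA and 7.58 to 7.65 with BaP, with no overlap. The median difference of the list was 0.07 with DMBA and -0.40 with BaP. With DMBA 2 of them rose, the complement genes C1qb (0.88, adjusted p = 0.013) and C1qc (0.65, adjusted p = 0.0088), and none fell, while Cd52 was at -0.16 and Coro1a at -0.14. With BaP none rose and 10 fell, led by the actin regulator Coro1a (-1.21), the surface antigen gene Cd52 (-1.08), the chemokine receptor gene Cx3cr1 (-0.83) and the signalling adaptor gene Tyrobp (-0.64). Between the compounds 10 were lower with BaP, led by C1qb (-1.28) and C1qc (-1.13). Over all probes 1.05% were called with DMBA, 9.8% with BaP and 1.12% between the compounds. The class II chains and Cd74 averaged 8.14 to 8.30 with acetone, 8.89 to 9.28 with DMBA and 8.09 to 8.14 with BaP, so that the BaP arrays lay at or under the lowest acetone array here.

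The defining leukocyte gene Ptprc (mean level 5.96) and the dendritic cell gene Flt3 (6.11) lay close to the lowest signals of the array. All 5 measured B cell genes were at or below the median level, with array means of 5.98 to 6.13, as were 8 of the 9 T and NK cell genes. What part the macrophage markers have in the class II values, or in the class I values given further down, was not tested. In whole ovaries, fewer cells of a type and less RNA per cell cannot be told apart.

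**Figure D3:**
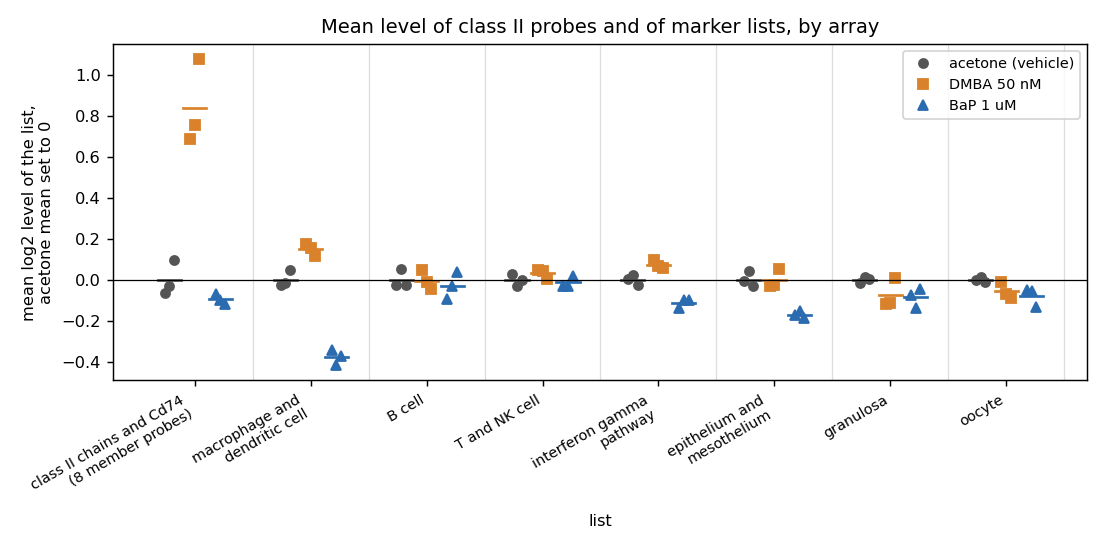
Mean log2 level of each array over the 8 probes of class II chains and Cd74 and over marker lists, with the acetone mean of each list set to 0 and bars at group means. The class II probes stand highest with DMBA, the macrophage and dendritic cell list is lowest with BaP, and the B cell and T and NK cell lists, which lie at low signals, stay near 0.

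The class I heavy chains gave a less uniform response to DMBA. Of their 29 probes, 2 rose with DMBA (6.9%, beside 1.05% of all probes called). With BaP 1 rose and 2 fell (10.3%, near the 9.8% of all probes called). The medians were 0.06 and 0.01, but 18 of the 29 were at or below the median level. The 11 above it, with H2-K1 among them, averaged 7.83 to 7.92 with acetone, 8.15 to 8.40 with DMBA and 7.47 to 7.66 with BaP. The BaP average takes in H2-K1 at -2.88 and probe 1 of H2-T23 at -1.02, the 2 called lower, and H2-Q7 at 0.41. It does not show a fall of the 11 as a set. H2-K1, a classical heavy chain, had the largest difference of any member. Promoters are shown for H2-K1 and H2-T23, which hold the probes that fell furthest with BaP among the class I chains, and for B2m. For H2-T23 this holds for probe 1 only, as probe 2 was at -0.02. Motifs are marked as above.
H2-K1 promoter, chr17:34000348-34000547, minus strand: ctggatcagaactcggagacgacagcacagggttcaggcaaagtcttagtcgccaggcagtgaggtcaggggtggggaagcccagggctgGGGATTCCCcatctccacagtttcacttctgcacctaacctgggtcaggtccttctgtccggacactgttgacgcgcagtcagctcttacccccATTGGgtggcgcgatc
H2-T23 promoter, chr17:36032702-36032901, minus strand: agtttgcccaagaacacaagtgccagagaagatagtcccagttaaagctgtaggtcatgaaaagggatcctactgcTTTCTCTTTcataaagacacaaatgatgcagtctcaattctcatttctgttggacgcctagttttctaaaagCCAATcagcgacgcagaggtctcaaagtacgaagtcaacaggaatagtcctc
B2m promoter, chr2:122147487-122147686, plus strand: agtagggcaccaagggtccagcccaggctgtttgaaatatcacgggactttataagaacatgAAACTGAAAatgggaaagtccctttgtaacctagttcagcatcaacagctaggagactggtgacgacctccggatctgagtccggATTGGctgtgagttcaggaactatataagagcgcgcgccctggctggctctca

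H2-K1 carries the NF-kB site core at -110 to -102 and a Y box at -16 to -12. The NF-kB letters are found in 0.213% of all windows and in 2 members, H2-K1 and H2-Q7. B2m has the interferon-stimulated response element core at -138 to -130 and H2-T23 has it at -124 to -116, and 7.21% of all windows and 3 members hold those letters. Y boxes lie at -53 to -49 in B2m and at -52 to -48 in H2-T23. The core of the site bound by the aryl hydrocarbon receptor, the receptor that both compounds are known to bind, was searched as GCGTG on both strands. It was found in 7 of the 30 member promoters, beside 24.7% of all windows, and in none of the 5 printed here.

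H2-K1 read 9.55, 9.31 and 9.50 with acetone, 9.51, 9.80 and 9.74 with DMBA and 6.46, 6.84 and 6.43 with BaP. The BaP arrays were far below all others and close to the median level of all probes, while DMBA and acetone overlapped. The signal of H2-K1 fell by 2.88 log2 units with BaP (SE 0.101, adjusted p = 2.4e-16), and 0.23 with DMBA did not pass (adjusted p = 0.45). The BaP call held under each of the 14 alternatives that were run, with differences from -3.45 to -2.39.

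H2-T23, the heavy chain Qa-1 that is recognised by natural killer cell receptors, had 2 probes. Probe 1 read 9.50, 9.20 and 9.57 with acetone, 9.87, 9.98 and 10.52 with DMBA and 8.49, 8.51 and 8.22 with BaP, and the 3 groups did not overlap. It fell by 1.02 with BaP (SE 0.101, 2.02-fold lower, adjusted p = 1.3e-07), while 0.70 with DMBA did not pass (SE 0.157, adjusted p = 0.07). Probe 2 read 6.73, 6.69 and 6.65 with acetone, 7.37, 7.34 and 7.38 with DMBA and 6.79, 6.66 and 6.57 with BaP. Here the DMBA arrays stood clear of the others and BaP overlapped with acetone. It rose by 0.67 with DMBA (SE 0.072, adjusted p = 0.0027) and was at -0.02 with BaP (95% interval -0.19 to 0.16). Its acetone and BaP arrays lie near the median level of all probes, where a fall may show only in part. A fall can still be called from such a level, as for the macrophage marker Csf1r. That gene was at 6.80 with acetone and at -0.50 with BaP (adjusted p = 0.00036, limma).

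The Q cluster encodes the Qa-2 molecules among others, from genes so alike that a probe may read more than its own. H2-Q5 rose by 0.71 with DMBA (SE 0.0945, adjusted p = 0.0066), from 6.66 ± 0.11, also near the median level, to 7.37 ± 0.14, and was at -0.11 with BaP. H2-Q7 read 7.08, 7.17 and 7.42 with acetone, 7.56, 7.63 and 8.51 with DMBA and 7.83, 7.59 and 7.49 with BaP. Acetone was the lowest group, and DMBA replicate 3 stood far above the other DMBA arrays. Its rise of 0.41 with BaP passed (SE 0.0995, adjusted p = 0.007), while 0.68 with DMBA, with a larger standard error of 0.209, did not (adjusted p = 0.21). The BaP rise of H2-Q7 shrank to 0.09 (adjusted p = 0.58) under median scaling, within a range of adjusted p = 0.0019 to 0.58 over its alternatives. H2-Q8 was at 0.53 with DMBA (adjusted p = 0.11) and -0.08 with BaP.

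H2-M3, a chain known for presenting formylated peptides, was at 0.41 with DMBA (SE 0.0853), with no overlap between the arrays, and did not pass (adjusted p = 0.055). With BaP it was at 0.01, and median scaling put it at -0.46 (adjusted p = 0.033). H2-T10, H2-M2, H2-Q1 and probe 1 of H2-M10.1 overlapped between all groups, with differences from acetone of -0.09 to 0.11 and adjusted p of 0.67 or more, and median scaling put H2-M2 and H2-T10 at -0.40 with BaP. The remaining 18 class I probes, among them the H2-M10 family known from pheromone-sensing neurons, the TL antigen gene H2-T3 and the secreted chain gene H2-Q10, were at or below the median level.

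B2m, the light chain of every class I molecule, was read by 2 bright probes. Probe 1 read 12.88, 12.83 and 12.87 with acetone, 13.08, 13.09 and 12.82 with DMBA and 12.53, 12.37 and 12.48 with BaP. Probe 2 read 12.67, 12.71 and 12.67 with acetone, 12.99, 12.92 and 12.77 with DMBA and 12.55, 12.32 and 12.31 with BaP. On both, the BaP arrays were under all others. B2m fell by 0.40 and 0.29 with BaP (adjusted p = 0.0021 and 0.033), and 0.14 and 0.21 with DMBA did not pass (adjusted p = 0.67 and 0.38). The BaP call of probe 2 was lost under 8 of 13 alternatives (adjusted p up to 0.22). A further B2m probe, at a mean level of 5.81, was near the lowest signals of the array.

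**Figure D4:**
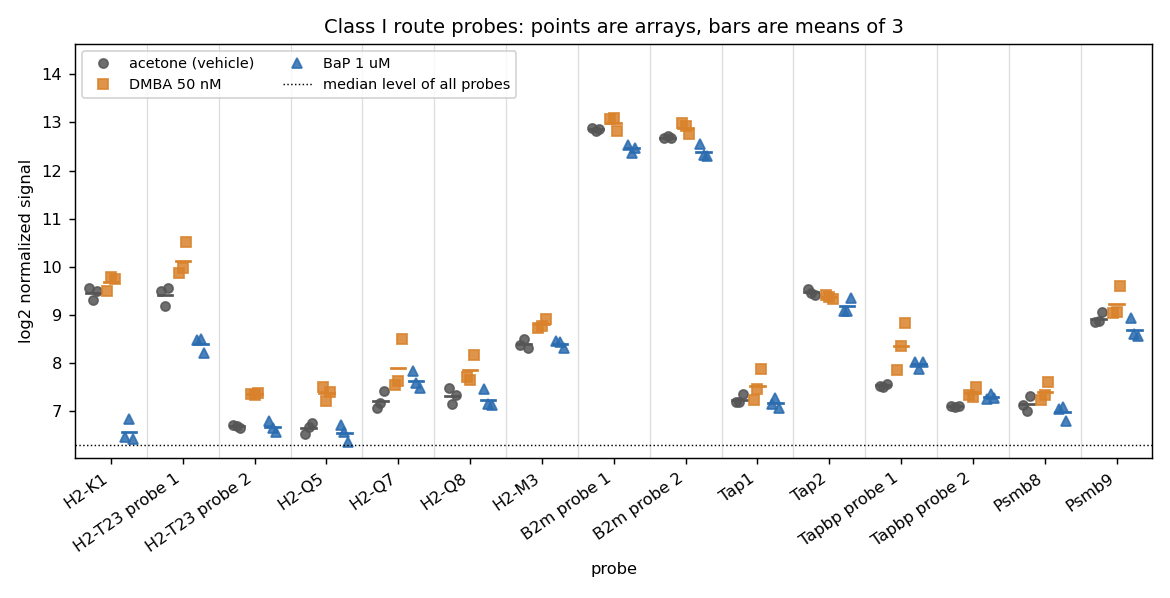
Log2 normalized signal of 15 probes of the class I route on each array, with bars at the mean of 3 arrays. BaP arrays (blue triangles) fall to between 6.43 and 6.84 at H2-K1 and lie under the acetone arrays (grey circles) at probe 1 of H2-T23 and at both B2m probes.

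Among the genes that supply peptides to class I, none of the 6 probes was called with DMBA, which is near the 1.05% of all probes called. Tap1, a transporter subunit, read 7.19, 7.19 and 7.36 with acetone, 7.23, 7.47 and 7.89 with DMBA and 7.15, 7.27 and 7.08 with BaP. Psmb8 read 7.14, 7.01 and 7.31 with acetone, 7.24, 7.34 and 7.62 with DMBA and 7.05, 7.09 and 6.81 with BaP. Psmb9 read 8.85, 8.87 and 9.06 with acetone, 9.03, 9.06 and 9.60 with DMBA and 8.94, 8.60 and 8.56 with BaP. All 3 genes overlapped between acetone and either compound, and on each DMBA replicate 3 was the highest array. Their differences with DMBA were 0.28, 0.25 and 0.31 (adjusted p = 0.54, 0.47 and 0.47), and with BaP -0.08, -0.17 and -0.23 (adjusted p = 0.7, 0.35 and 0.17). Tap1 and Psmb9 are neighbours read in opposite directions, and their promoter windows share 275 of 300 bases.

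With BaP, Tap2 fell by 0.29 (SE 0.0898, adjusted p = 0.037), from 9.47 ± 0.07 to 9.18 ± 0.15, a call lost under 8 of 14 alternatives (adjusted p up to 0.22). Probe 1 of Tapbp rose with BaP by 0.43 (SE 0.0834, adjusted p = 0.00091), from 7.54 ± 0.03 to 7.98 ± 0.09. Under median scaling the Tapbp rise was 0.06 (adjusted p = 0.7), within a range of adjusted p = 0.00076 to 0.7 over its alternatives. With DMBA the same Tapbp probe was at 0.81, with no overlap, and did not pass (SE 0.185, adjusted p = 0.076). Of 12 further genes of peptide supply and transport, 1 rose with DMBA and 2 with BaP, beside 1.05% and 9.8% of all probes called. Calr, the chaperone calreticulin that holds new heavy chains, rose by 1.10 with DMBA (adjusted p = 0.0041) and 1.40 with BaP (adjusted p = 3e-10), and the proteasome activator gene Psme2 rose by 0.38 with BaP. Nlrc5, a transactivator of class I genes, was at 0.21 with DMBA and -0.14 with BaP and did not pass. H2-Ke6, whose old symbol names a steroid dehydrogenase encoded in the region, was at -0.11 with DMBA and -0.09 with BaP, also not past the test.

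Interferon gamma is the usual inducer of the class II, immunoproteasome and transporter genes. Its own transcript Ifng was near the lowest signals, at a mean level of 6.00. Of 14 genes of its pathway, 2 rose with DMBA, the chemokine gene Cxcl10 (0.56, adjusted p = 0.022) and the GTPase gene Igtp (0.52, adjusted p = 0.028), and none fell. With BaP 1 rose, Cxcl10 (0.28, adjusted p = 0.044), and 4 fell, namely the transcription factor gene Irf8 (-0.49), the kinase gene Jak2 (-0.39) and the receptor genes Ifngr1 (-0.35) and Ifngr2 (-0.33). Over all probes 1.05% were called with DMBA and 9.8% with BaP.

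Probes of 1 gene did not always move alike. For each pair the difference between the probes was taken on each array, so that only the change of one relative to the other remains. The values are given as a description with no test, as an exact permutation test of 3 arrays against 3 cannot go below 0.1. With BaP, the difference of H2-Ab1 probe 2 minus probe 3 shifted by -1.36 (SE 0.119) and that of probe 1 minus probe 2 by 0.73 (SE 0.109), and the BaP arrays did not overlap with the acetone arrays in either. With DMBA, probes 1 and 3 of H2-Ab1 moved by the same amount, with a difference of 0.00 (SE 0.0744), and probe 2 minus probe 3 shifted by -0.32 (SE 0.0653).

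The 2 probes of H2-T23 parted with BaP, by -0.999 (SE 0.134, no overlap), and not measurably with DMBA (0.03, SE 0.229). Probe 2 lies near the median level with acetone and BaP, where a fall may show only in part. Whether that accounts for the parting was not tested. The Cd74 probes differed in their BaP response by -0.08 (SE 0.0629) and those of B2m above background by -0.11 (SE 0.0622), both with overlapping arrays. The probes of Tapbp parted by 0.53 with DMBA (SE 0.238) and 0.24 with BaP (SE 0.0848). H2 genes are highly polymorphic and many are close copies, and probe sequences were not used here, so which alleles, transcripts or copies each probe reads is not known.

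**Figure D5:**
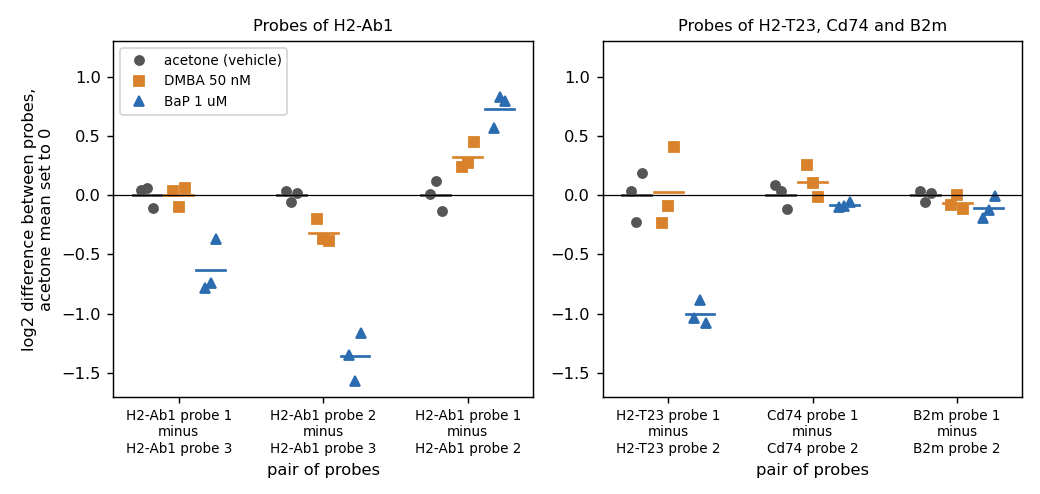
Difference in log2 signal between probes of the same gene on each array, with the acetone mean of each pair set to 0 and bars at group means. In the BaP arrays (blue triangles) the H2-Ab1 pairs and the H2-T23 pair leave 0, while the Cd74 and B2m pairs stay within 0.2 of it.

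DMBA and BaP were given at different doses, so the direct comparison is between these treatments and not at a matched dose. Of the 14 members called, 13 were lower with BaP. H2-K1 differed by -3.11 (SE 0.122, adjusted p = 2.5e-07), probe 2 of H2-Ab1 by -1.86 (SE 0.107, adjusted p = 4e-06), probe 1 of H2-T23 by -1.72 (SE 0.151, adjusted p = 0.00017), probe 1 of H2-Ab1 by -1.45 (SE 0.138, adjusted p = 0.00029) and probe 1 of Cd74 by -1.39 (SE 0.0919, adjusted p = 1.4e-05). Probe 2 of Cd74 (-1.19), H2-Eb1 (-1.17), probe 3 of H2-Ab1 (-0.82), H2-Q5 (-0.82), probe 2 of H2-T23 (-0.69), H2-DMa (-0.52) and the B2m probes (-0.54 and -0.49) followed, with adjusted p from 0.00044 to 0.035. Of these, the calls of B2m probe 1 (7 of 14 alternatives), B2m probe 2 (8 of 13), H2-Ab1 probe 3 (7 of 13) and H2-DMa (6 of 14) were the ones most often lost. H2-Ea alone was higher with BaP, by 0.66 (SE 0.0792, adjusted p = 0.0018).

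By role, the direct comparison called 4 of 6 class II chain probes lower and 1 higher, 3 of 7 accessory probes lower, 4 of 29 class I heavy chain probes lower, 2 of 3 B2m probes lower and none of the 6 peptide supply probes. Over all probes 0.506% were called higher and 0.615% lower, so that none of 6 is near the background. Peptide supply probes differed by -0.53 to -0.08, and for Tap1 the interval was -0.67 to -0.05 (adjusted p = 0.36), so a difference of that size is not shown to be absent. H2-Aa differed by -0.27 (95% interval -0.49 to -0.05, adjusted p = 0.34).

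The authors' deposited table lists 110 probes as differential for DMBA, and 8 of them are members, all higher: the 3 probes of H2-Ab1, H2-Eb1, both Cd74 probes, probe 1 of H2-T23 and probe 1 of Tapbp. For BaP the authors' deposited table lists 205 probes, of which H2-Ea is higher and H2-K1, probe 1 of H2-T23 and probe 2 of H2-Ab1 are lower. In the authors' deposited table the acetone over BaP ratio of H2-K1 is 5.50 (unadjusted p = 2.42e-10). The term for antigen processing and presentation of peptide antigen ranks 1 of 667 by p-value for DMBA in the authors' deposited table of ontology terms, with 5 of 32 genes listed (p = 1.04e-06), and the term MHC protein complex ranks 3 of 983 for BaP in the authors' deposited table, with 4 of 23 genes (p = 1.25e-04). In the authors' deposited table the first term ranks 6 for BaP and the second 14 for DMBA. The term MHC class I protein complex ranks 225 for DMBA and 65 for BaP there.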

How the data were processed

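RNA of 3 acetone, 3 DMBA and 3 BaP ovary samples was hybridised to single-colour beadchips. Per the file headers, the authors deposited non-normalized probe intensity values, with no detection p-values. The authors also deposited log2 values of the same arrays, for which the submitters' processing notes name lumi. The authors' deposited reports give per probe an acetone over compound ratio and an unadjusted p-value, from a model not given in the sources used here. These reports name genes and not probes, so each probe was joined to the report row whose log2 ratios matched for both compounds, with a tolerance of 1e-04 and the second-best row 5 times or more away. All 53 members and 25649 of the 25697 probes found a row. Symbols were updated through RefSeq, 48 members by accession.

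The intensities went through normexp background correction (offset 50), quantile normalization of the 9 arrays together and log2. limma 3.58.1 in R 4.3.3 was fitted to the 6 arrays of a comparison at a time (lmFit, eBayes, two-sided, every probe, no filter). In simulated data 200 of 25697 probes, drawn only from those above the median level, were changed by a full 1 log2 unit of normalized signal. The share recovered was 89.4% for the DMBA fit, 97.5% for the BaP fit and 88.1% for the direct fit. These shares do not extend to members at or near the median level, where signal holds background. The number of arrays limits the precision. Alternatives were median scaling, the deposited log2 values, other background corrections, a filter on dim probes, 1 probe per gene, the spread from all 9 arrays, replicate number as a block, and leaving out each array. Same-numbered arrays did not deviate together (correlations -0.18 to 0.13), so the numbers were not taken to pair samples. Joins and plots used Python 3.11.15 with pandas 2.3.3 and matplotlib 3.10.9. The members and gene lists were chosen with earlier results of these data known. Genes named are the members called in any comparison, a panel of central members, and up to 4 called genes of each list.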

Additional observations from a re-analysis of the deposited data

Results flagged for a closer look

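Probes 1 and 2 of H2-Ab1 and both probes of Cd74 rose with DMBA and fell with BaP against the same acetone arrays, and the direct difference between the compounds passed the test. That difference, BaP minus DMBA in log2 units, was -1.45 for probe 1 of H2-Ab1 (adjusted p = 0.00029, limma), -1.86 for probe 2 of H2-Ab1 (adjusted p = 4e-06), -1.39 for probe 1 of Cd74 (adjusted p = 1.4e-05) and -1.19 for probe 2 of Cd74 (adjusted p = 0.00044). For all 4 the BaP arrays lay below the acetone arrays and the DMBA arrays above them. Probe 3 of H2-Ab1, which also rose with DMBA, was at 0.29 with BaP (adjusted p = 0.053), so the probes of this gene did not move alike. The doses differed, and the macrophage and dendritic cell marker list ran in the same order, with array means of 7.58 to 7.65 with BaP, 7.97 to 8.04 with acetone and 8.11 to 8.17 with DMBA. With DMBA 2 of its 19 genes were called, beside 1.05% of all probes, and the list median was 0.07, with Cd52 at -0.16 and Coro1a at -0.14. The order was not particular to this list. The 14 genes of the interferon gamma pathway had group means of 7.83 with BaP, 7.94 with acetone and 8.01 with DMBA. Their array means did not overlap between the groups. The epithelium and mesothelium list was also lower with BaP, with array means of 7.91 to 7.95 beside 8.07 to 8.14 with acetone. With DMBA that list overlapped with acetone. What part the macrophage and dendritic cells or the interferon gamma pathway have was not tested.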

How the results depend on the processing

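Of the calls described, those of H2-K1, H2-T23 probe 1, H2-Ab1 probe 2, H2-Ea and Cd74 probe 1 with BaP, and of H2-Ea, H2-K1, Cd74, both H2-T23 probes and H2-Ab1 probes 1 and 2 between the compounds, held under every alternative run. The 11 members higher with DMBA were 1 under median scaling, 7 with the deposited log2 values, 7 with no background correction and 7 with 1 probe per gene, and 2 to 16 when leaving out 1 array. The 3 higher with BaP were 1 under median scaling and 1 with the spread from all 9 arrays (2 to 4 leaving out 1 array), and the 9 lower were 19 under median scaling and 4 with normexp offset 16 (7 to 9). The 13 lower between the compounds were 24 under median scaling and 8 with 1 probe per gene (7 to 15). With 1 probe per gene no call was lost on the probes kept, as all 7 DMBA calls and all 9 direct calls held. Those lower counts come from the further probes being left out. With replicate number as a block, 14 members rose with DMBA, 3 rose and 7 fell with BaP, and 1 was higher and 9 lower between the compounds. The median of class II and accessory chains with DMBA, 0.68, was 0.48 with the deposited log2 values and 0.46 with no background correction; median scaling moved it from -0.02 to -0.32 for BaP and from -0.52 to -0.87 between the compounds, and the class I median between the compounds from -0.01 to 0.068. Under median scaling H2-M2 (-0.40), H2-M3 (-0.46) and H2-T10 (-0.40) turned lower with BaP. Over all probes, DMBA calls went from 270 to 4 under median scaling, 126 and 125 with the deposited values and no background correction, 462 with the spread from all 9 arrays, and 26 to 1132 leaving out 1 array. BaP calls went from 2518 to 6504 under median scaling, 944 with offset 16, 1502 with the spread from all 9 arrays, and 1446 to 2391 leaving out 1 array. Direct calls went from 288 to 2944 under median scaling, 145 with offset 16, 534 with the spread from all 9 arrays, 147 with the block, and 72 to 892 leaving out 1 array. Apart from fewer arrays or probes tested where a setting removes them, the cause of each change was not tested.

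With no detection p-values, signal over background cannot be told for the 23 probes at or below the median level, and their values set no limit on a change in RNA. H2-Aa, H2-Ea and Ciita with acetone, H2-K1 with BaP, and H2-Q5 and H2-T23 probe 2 with acetone and BaP lie near that level, so their differences are of signal with background in it.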

Other observations

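Neighbouring genes of the histocompatibility region on chromosome 17 were read beside the H2 genes. Of 72 such genes listed, 64 were measured, with medians of -0.02 for DMBA and for BaP. None was called with DMBA by limma, beside 1.05% of all probes, so that a count of 0 in 64 genes is near the background (2714 of all probes had an unadjusted p under 0.05). With BaP 4 rose and 10 fell, beside 9.8% of all probes called, among them the macrophage gene Aif1 (-0.53), the leukocyte gene Lst1 (-0.50) and Ddah2 (-0.44) on the lower side and Agpat1 (0.47), a lipid synthesis enzyme gene, and the complement gene C4b (0.47) on the higher side. Between the compounds Aif1 was lower with BaP, by 0.79 log2 units (adjusted p = 0.00078).

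Class I-like genes outside the H2 names, such as those of the neonatal Fc receptor and CD1d, were measured for 8 of 9 listed. None was called in any comparison by limma, and their differences from acetone ran from -0.05 to 0.23 with DMBA and from -0.10 to 0.22 with BaP. Over all probes 1.05% were called with DMBA, 9.8% with BaP and 1.12% between the compounds, so that none of 8 is near the background.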
